A study of Homo sapiens with 20 samples.

Results

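Expression of 10 transcription factors that mark newly formed neurons was followed while human neural progenitor cells became neurons in culture: INSM1, SCRT1, MYT1, MYT1L, ST18, NHLH1, NHLH2, EBF1, EBF2 and EBF3. They were chosen by gene name, and for each symbol the coding record with the highest mean level was kept. All 10 had a single record, none of these was merged with another gene, and they are 10 of 20237 coding records (38369 records with lincRNAs). All 10 symbols matched a protein-coding gene of the GENCODE annotation on the same chromosome and strand. The progenitors were derived from the established human embryonic stem cell line H1, so every value belongs to 1 genetic background. The labels give 20 samples, of progenitors (day 0) and of cells 1, 2 or 4 days, and then 5, 11 or 18 days, after the mitogen FGF was withdrawn and the neurotrophic factor BDNF added. There were 3 cultures for each day except day 5, which had 2 after the submitters removed an outlier. Cells for days 5, 11 and 18 had been replated on day 4 on another surface. Time and replating therefore cannot be told apart in any comparison of day 4 or earlier with day 5 or later.

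The deposited values are FPKM (fragments scaled by transcript length in kilobases and by library size), with a single value for each record and day that pools the cultures of the day. No spread between cultures can therefore be given for any value, no difference was tested, and no 2 neighbours in an order of levels can be shown to differ beyond their spread. Changes are differences in log2(FPKM + 0.1), which understate the change of weakly expressed genes. The median record with a mean of at least 1 FPKM (14443 records) changed by -0.29 over days 0 to 11, by -0.28 over days 11 to 18 and by -0.56 over days 0 to 18. Changes are given relative to this median unless they are called as deposited. In place of a test, a change counts here as a rise or a fall where it reached 2-fold on that scale, and the share of the 14107 coding records with a mean of at least 0.1 FPKM that did so is set beside the count. Of the 10 factors, 9 reached that mean and NHLH2 did not.

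Newborn neurons pass through a short phase between the last division of a progenitor and the mature state. Proneural factors of the basic helix-loop-helix class, such as NEUROG2, start it and switch on a further set of regulators. INSM1 and SCRT1 are zinc finger repressors of the SNAG class. MYT1, MYT1L and ST18 form a family of their own with a different kind of zinc finger, and MYT1L is best known for holding non-neuronal genes silent in neurons. NHLH1 and NHLH2 are small basic helix-loop-helix proteins, and EBF1, EBF2 and EBF3 are DNA-binding proteins with a helix-loop-helix dimerisation region that act in the differentiation and migration of young neurons. Outside the nervous system, EBF1 is known from B cell development, EBF2 from fat cells and INSM1 from endocrine cells.

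Promoter sequence was read for the factors that have a window in the RefSeq table used here (6 of the 10, with 10 windows in all, build GRCh38.p14, each 250 bases before to 50 bases after a start). Each window was searched on both strands for 4 sets of letters: CAGCTG and CAGATG, which are E-boxes of the kind that basic helix-loop-helix factors bind, CCCNNGGG, the core that EBF factors bind, and AAGTTT, the core that the MYT family binds. Stretches of the 4 genes below are shown because each holds a match, in capitals, to letters that a factor class among these genes is known to bind. NHLH1 lies at chr1:160366841-160366940, plus strand, EBF1 at chr5:159098137-159098206, minus strand, EBF3 at chr10:129964275-129964344, minus strand, and MYT1 at chr20:64164382-64164451, plus strand.
NHLH1: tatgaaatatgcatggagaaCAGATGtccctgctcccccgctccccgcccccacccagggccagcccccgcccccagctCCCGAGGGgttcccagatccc
EBF1: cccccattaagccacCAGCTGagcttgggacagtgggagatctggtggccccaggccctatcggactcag
EBF3: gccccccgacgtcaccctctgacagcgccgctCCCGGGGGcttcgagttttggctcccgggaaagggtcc
MYT1: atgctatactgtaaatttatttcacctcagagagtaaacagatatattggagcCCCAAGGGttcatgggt
The NHLH1 window held CAGATG with its first base at -210 and the EBF core at -151. EBF3 and MYT1 held the EBF core at -38 and -17, and EBF1 held CAGCTG at -235. Among the 10 windows, 3 held CAGCTG, 3 CAGATG, 3 the EBF core and 0 AAGTTT, against 17.9%, 14.7%, 19.1% and 12.8% of all 35116 windows of the same length. A match describes these letters and does not show binding.

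All 9 factors above the minimum were higher on day 11 than on day 0 by at least 2-fold, where 14.4% of coding records were. Their relative log2 change ran from 2.40 for EBF1 to 4.40 for INSM1, with a median of 3.82 against 0.02 for all coding records above the minimum. From day 0 to day 18 the 9 factors also each exceeded 2-fold, with a background of 18.5%, a median of 3.46 and a range from 2.57 for EBF1 to 4.76 for SCRT1. Which factor stands highest depends on the pseudocount: from day 0 to day 18 it was MYT1L (5.30, against 4.96 for SCRT1) with 0.01, and from day 0 to day 11 it was NHLH1 with 1. In whole cultures, a larger share of young neurons and more RNA of these genes per cell cannot be told apart.

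**Figure D1:**
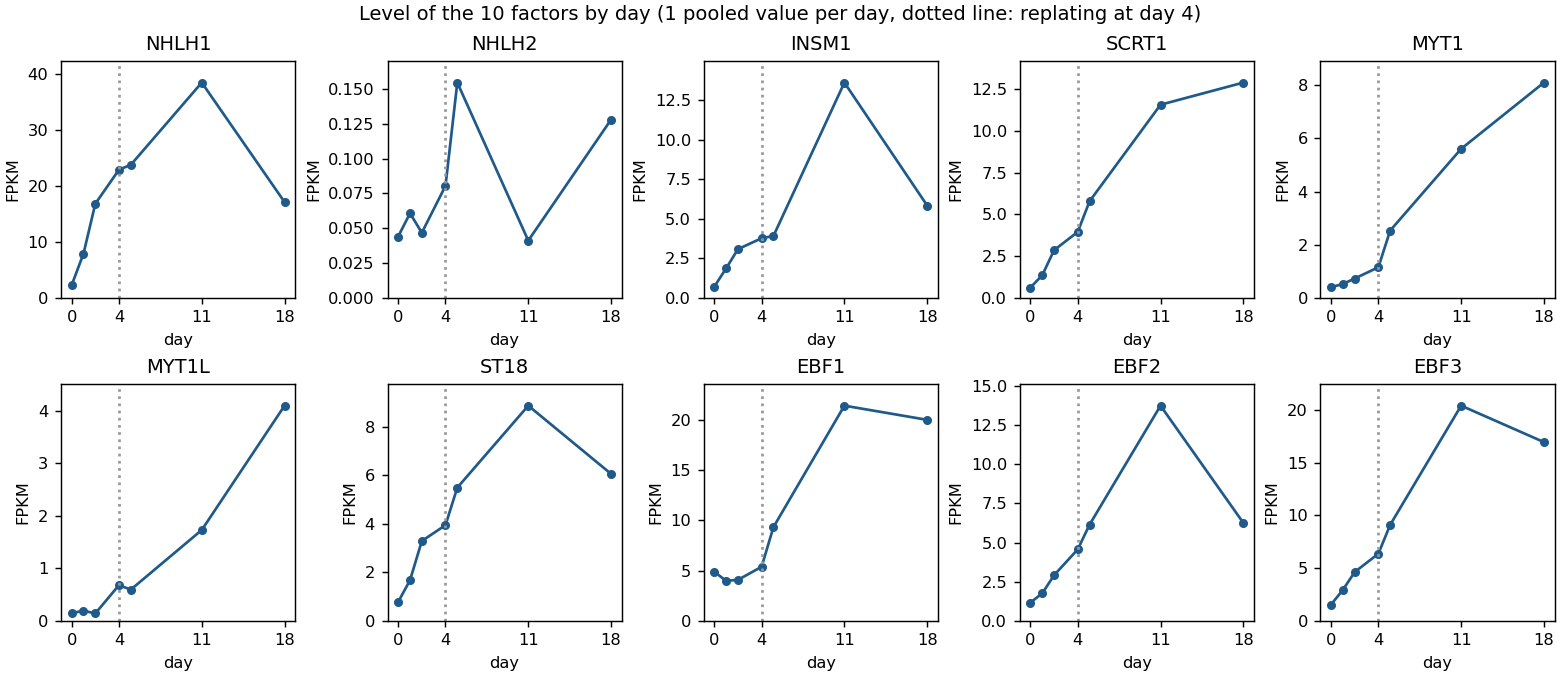
FPKM (vertical axes, a separate linear scale from 0 in each panel) of the 10 factors against day of differentiation (horizontal axes), with 1 point for the authors' pooled value of each day and a dotted line at the replating on day 4. NHLH1 reached 38.5 FPKM on day 11 and was at 17.1 on day 18, MYT1 and MYT1L were highest on day 18, and NHLH2 never exceeded 0.155.

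NHLH1 was the most abundant of the factors on day 11 and had the largest change within the first day. This gene, on hg19 chromosome 1 from 160336861 to 160342638 (plus strand), codes for a basic helix-loop-helix protein of newly born neurons. Its FPKM was 2.24 on day 0, 7.87 on day 1, 16.8 on day 2, 22.9 on day 4, 23.8 on day 5, 38.5 on day 11 and 17.1 on day 18. Days 1 to 18 were all above day 0, and by day 4 the level stood at 59.5% of its highest value. The relative log2 change from day 0 to day 4 was 3.35, the 12th highest among 14107 coding records. From day 11 to day 18 it was -0.89 relative to the median and -1.17 as deposited, so only the second exceeds 2-fold.

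Its paralogue NHLH2 (chromosome 1, 116379001 to 116383747, minus strand), known from the hypothalamus, was close to absent from the values. NHLH2 had 0.0440 FPKM on day 0, 0.0607 on day 1, 0.0467 on day 2, 0.0804 on day 4, 0.155 on day 5, 0.0410 on day 11 and 0.128 on day 18. The authors' program set this record aside for too few fragments at all 6 steps between adjacent days. NHLH1 therefore made up between 98.1% and 99.9% of the summed FPKM of both genes on every day.

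INSM1 (chromosome 20, 20348765 to 20351590, plus strand) is a repressor that moves progenitors towards neuronal and endocrine fates. It had an FPKM of 0.694 on day 0, 1.86 on day 1, 3.07 on day 2, 3.76 on day 4, 3.90 on day 5, 13.6 on day 11 and 5.84 on day 18. The profile thus had an early rise, little change between days 2 and 5 and a maximum on day 11. From day 5 to day 11 its relative log2 change was 1.93, the highest of the factors, and from day 11 to day 18 it was -0.93 (-1.21 as deposited). The values of INSM1 are uncertain, because an antisense lincRNA record shares 82.0% of its exon bases and counting by strand is not stated.

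SCRT1 (chromosome 8, 145554454 to 145559943, minus strand), a neural relative of the Snail repressors, climbed without a step back. Its FPKM was 0.607 on day 0, 1.34 on day 1, 2.85 on day 2, 3.95 on day 4, 5.79 on day 5, 11.6 on day 11 and 12.9 on day 18. Each value exceeds the one before it. The relative log2 change from day 0 to day 18 was 4.76, the 72nd highest of the coding records. As a plain ratio, SCRT1 was 21.3-fold higher on day 18 and MYT1L 28.4-fold. From day 11 to day 18 the relative change was 0.43, well under 2-fold.

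The 3 genes of the MYT family differed in timing. ST18 (chromosome 8, 53023392 to 53322439, minus strand) had 0.774 FPKM on day 0, 1.67 on day 1, 3.29 on day 2, 3.95 on day 4, 5.50 on day 5, 8.88 on day 11 and 6.07 on day 18. MYT1 (chromosome 20, 62783144 to 62873604, plus strand) had 0.392, 0.515, 0.721, 1.14, 2.53, 5.61 and 8.11 on the same days. ST18 passed 2-fold within the first day, whereas MYT1 was still at 14.1% of its highest value on day 4 and peaked on day 18. MYT1L (chromosome 2, 1792887 to 2335045, minus strand) had 0.144, 0.190, 0.139, 0.678, 0.593, 1.73 and 4.10 FPKM. MYT1L was thus the latest of the factors, and it alone rose by at least 2-fold from day 11 to day 18, by 1.47 on the relative log2 scale (1.20 as deposited). Its first 3 values rest on little data, since the authors' program found too few fragments at the first 2 steps.

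The make-up of the MYT family shifted. FPKM is per length, so levels of the family's genes can be compared. ST18 held 59.1% of the summed FPKM on day 0, 79.3% on day 2, 54.8% on day 11 and 33.2% on day 18. MYT1 held 29.9% on day 0, 17.4% on day 2 and 44.4% on day 18. MYT1L held 11.0% on day 0, 3.35% on day 2, 11.8% on day 4 and 22.4% on day 18. The day 2 share of MYT1L rests on its lowest FPKM, which had little data. The sum itself went from 1.31 FPKM on day 0 to 16.2 on day 11 and 18.3 on day 18.

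EBF1 (chromosome 5, 158122924 to 158526788, minus strand) differed from the other factors at the start. It had the highest day 0 level of all 10, at 4.87 FPKM, and then 3.97 on day 1, 4.07 on day 2, 5.37 on day 4, 9.32 on day 5, 21.4 on day 11 and 20.0 on day 18. Its level was flat up to day 4, when the relative log2 change from day 0 was 0.19, and it was the only one of the 9 factors under 2-fold at that point. EBF2 (chromosome 8, 25701573 to 25902392, minus strand) had 1.16, 1.75, 2.91, 4.56, 6.14, 13.8 and 6.26 FPKM on the 7 days. EBF3 (chromosome 10, 131633547 to 131762091, minus strand) had 1.53, 2.93, 4.63, 6.36, 9.11, 20.4 and 17.0. All 3 were highest on day 11 as deposited, but their day 18 levels stood at 93.4% (EBF1), 45.5% (EBF2) and 83.1% (EBF3) of day 11. From day 11 to day 18, the relative log2 change was -0.85 for EBF2, 0.18 for EBF1 and 0.01 for EBF3. As deposited these were -1.12, -0.10 and -0.27, so the direction of EBF1 and EBF3 over this step depended on the scaling.

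Within the EBF family, the EBF1 share was lowest in the middle of the course. EBF1 held 64.4% of the summed FPKM on day 0, 33.0% on day 4 and 46.3% on day 18. EBF3 went from 20.3% on day 0 to 39.0% on day 4 and 39.2% on day 18, and EBF2 from 15.3% to 28.0% and 14.5%. The family sum was 7.57 FPKM on day 0, 16.3 on day 4, 55.6 on day 11 and 43.2 on day 18.

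**Figure D2:**
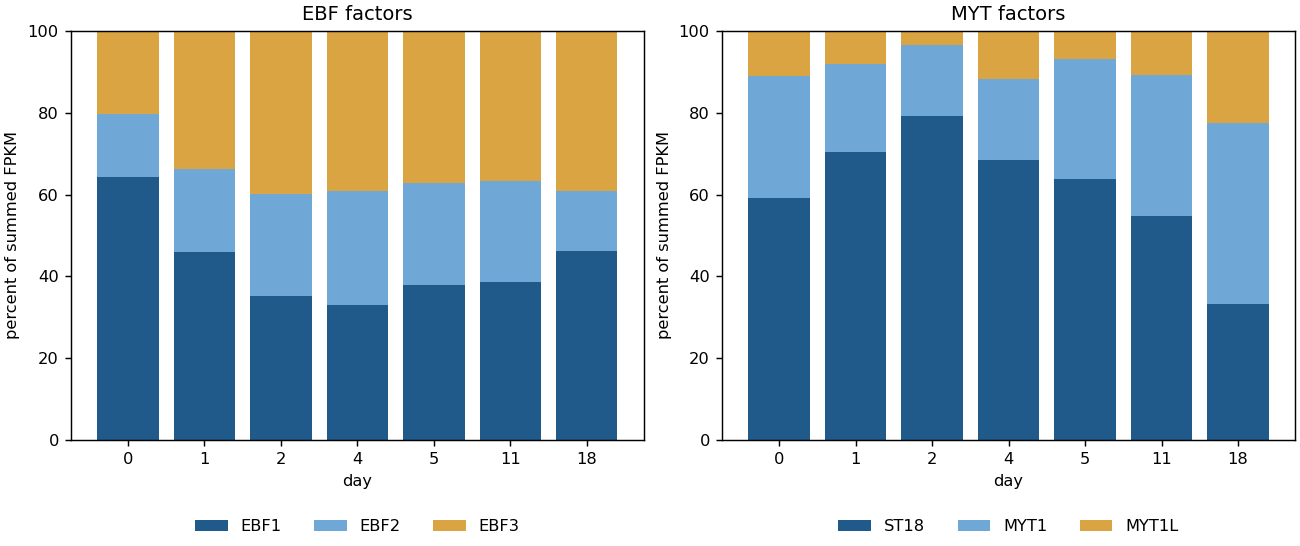
Share of the summed FPKM (vertical axes, percent) held by each gene of the EBF family (left) and of the MYT family (right) on each day (horizontal axes). The EBF1 share was lowest on day 4 (33.0%), and the ST18 share went from 79.3% on day 2 to 33.2% on day 18.

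The timing of the rise was compared over the 6 steps between adjacent days. From day 0 to day 1, the first day without FGF, 4 of 9 factors (INSM1, NHLH1, ST18 and SCRT1) rose by at least 2-fold, where 5.81% of coding records did. With a pseudocount of 1 this count was 1 (NHLH1), and the single calls of the next 3 steps were lost. EBF3 was just below, with a relative log2 change of 0.98. Between days 1 and 2 only NHLH1 passed 2-fold (1 of 9, background 0.234%). MYT1L was the only one between days 2 and 4 (1 of 9, background 0.184%), and MYT1 between days 4 and 5 (1 of 9, background 0.631%). Over days 0 to 4 together, 8 of 9 had risen, all but EBF1, with a background of 7.91%.

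Between days 5 and 11, of the 9 factors, 7 rose by at least 2-fold (background 3.74%), with NHLH1 at 0.85 and ST18 at 0.83 on the relative log2 scale. These 2 factors had been furthest along, at 61.8% and 61.9% of their highest value by day 5. The other 7 stood between 14.5% (MYT1L) and 44.8% (SCRT1). Day 5 had 2 cultures, and with day 4 as the earlier day instead, 8 factors passed 2-fold by day 11 (background 6.71%).

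From day 11 to day 18 the factors went different ways. MYT1L alone rose (1 of 9, background 3.3%) and none fell by 2-fold relative to the median (background 1.35%), although INSM1, NHLH1 and EBF2 did as deposited (background 3.54% on that scale). MYT1 had a relative log2 change of 0.80. INSM1, NHLH1 and EBF2 lay between -0.93 and -0.85, and ranked 13866th, 13812th and 13769th of 14107 coding records.

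**Figure D3:**
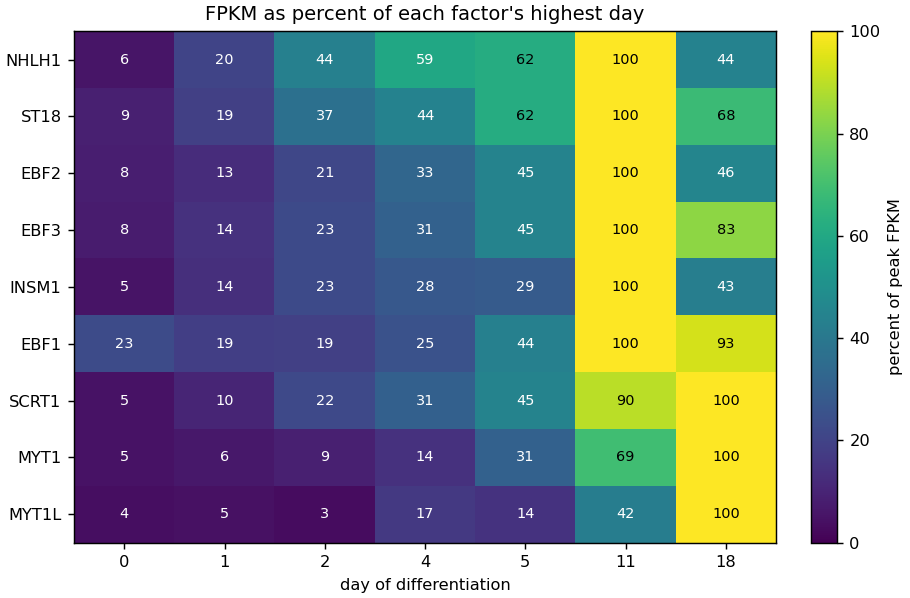
FPKM of 9 factors as percent of each factor's own highest day (colour and printed whole percent), by day of differentiation (columns). NHLH1 and ST18 stood at 61.8% and 61.9% on day 5, the other 7 were at or below 44.8% then, and SCRT1, MYT1 and MYT1L had their highest value on day 18.

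**Figure D4:**
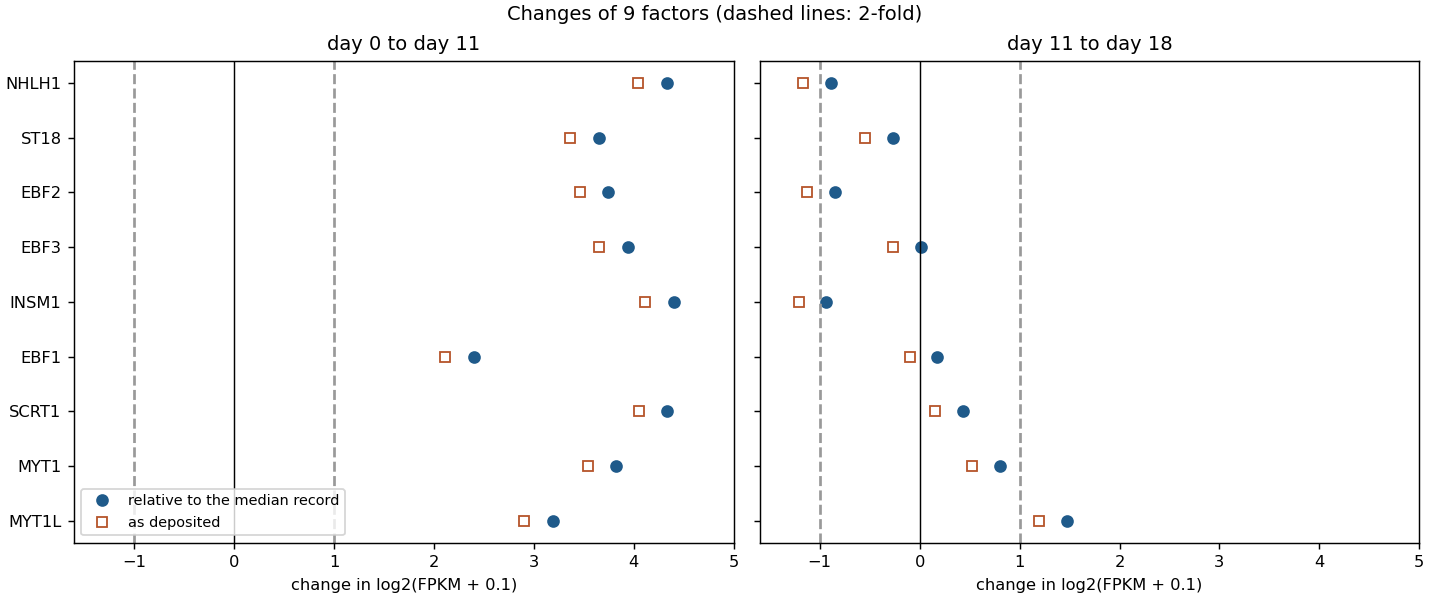
Change in log2(FPKM + 0.1) of 9 factors (rows) from day 0 to day 11 (left) and from day 11 to day 18 (right), relative to the median record (filled circles) and as deposited (open squares), with dashed lines at 2-fold. All 9 lie beyond 2-fold on the left, while on the right only MYT1L does so on the higher side under both scales.

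Profiles of the factors over the 7 days were also compared pair by pair. Pearson's r of log2(FPKM + 0.1) was at least 0.9 in 18 of 36 pairs, highest for EBF3 with SCRT1 (0.99) and lowest for EBF1 with NHLH1 (0.55). The 7 points of each pair share libraries and the authors' scaling of the days, so these values only describe likeness in shape.

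LincRNA records lay within 50 kb of 8 of the 10 genes (9 records, of which 6 had a mean of at least 0.1 FPKM). The record linc-INSM1-AS (chromosome 20, 20341364 to 20351593, minus strand) spans the whole INSM1 gene, and 97.0% of its exon bases are also INSM1 exon bases. Its FPKM was 2.46 on day 0, 4.31 on day 1, 6.85 on day 2, 8.14 on day 4, 11.5 on day 5, 17.3 on day 11 and 11.6 on day 18. Like INSM1 it was highest on day 11, but from day 4 to day 5 it went up while INSM1 stayed near its level. Reads of this pair cannot be told apart without strand.

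Next to NHLH1, the record linc-COPA (chromosome 1, 160343022 to 160346814, minus strand) has its 3′ end 384 bases from the end of the gene and shares 0 exon bases with it. Its FPKM was low, at 0.0706 on day 0, 0.373 on day 4, 0.609 on day 11 and 0.243 on day 18, with its highest and lowest values on the same days as NHLH1. At EBF1, linc-EBF1-BP (chromosome 5, 158523714 to 158544487, plus strand) covers the start of the gene on the other strand and shares 6.48% of its exon bases with it. It had 0.835 FPKM on day 0, 0.972 on day 4, 2.92 on day 11 and 2.06 on day 18. The antisense records of NHLH2 and MYT1L stayed at or below 0.0444 FPKM.

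**Figure D5:**
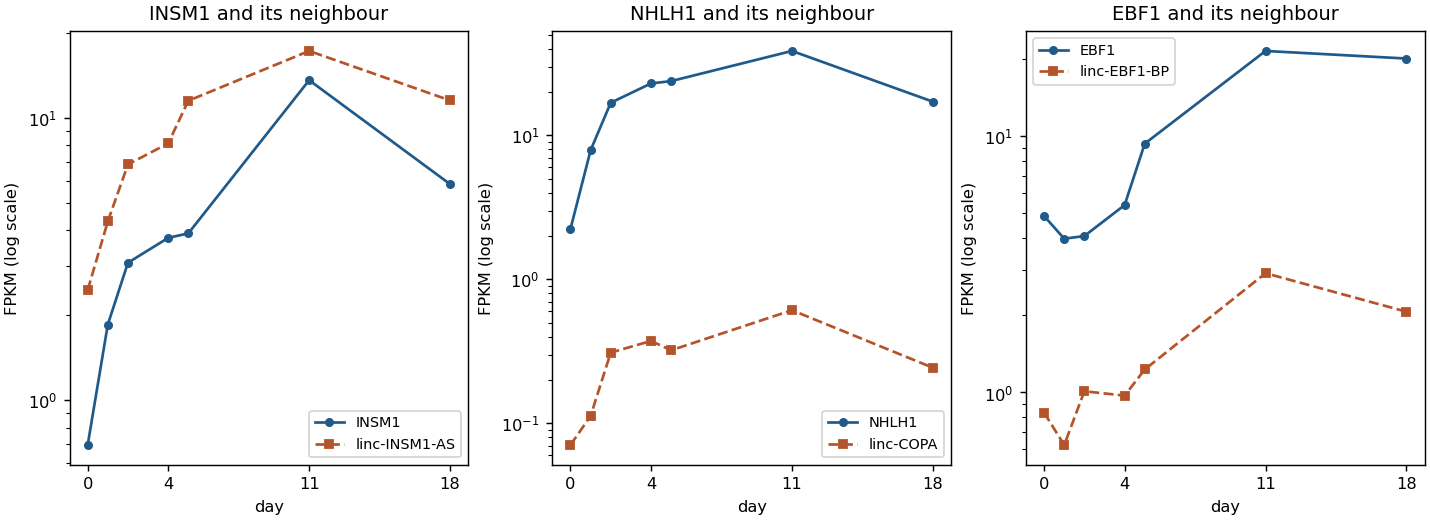
FPKM on a log scale (vertical axes) by day (horizontal axes) for INSM1, NHLH1 and EBF1 (solid lines, circles) and the lincRNA record next to each (dashed lines, squares). All 6 records were highest on day 11, and linc-INSM1-AS shares most of its exon bases with INSM1, so that pair is not separable.

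The other genes of the pathway were taken from lists. Of 9 proneural factors, which act upstream of the young neuron regulators, 5 passed the minimum of 0.1 FPKM. All 5 of these rose from day 0 to day 18 (median 3.15), where 18.5% of coding records rose. As deposited all 5 rose too, against 10.6% of coding records. NEUROG2 went from 0.693 FPKM on day 0 to 5.06 on day 1, 19.4 on day 11 and 9.93 on day 18, and NEUROD4 from 0.370 to 2.12, 5.96 and 3.02. Both were thus highest on day 11, as was NHLH1. NEUROD1, in a record merged with CERKL, had 1.55, 2.09, 8.62 and 5.93 FPKM on those days. NEUROD2 and NEUROD6, which belong to forebrain projection neurons, stayed at or below 0.152 FPKM.

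Of 11 genes of the Notch pathway, through which new neurons hold back their neighbours, 10 passed the minimum, of which 5 rose and 1 fell (MFNG, in a merged record) from day 0 to day 18, where 18.5% of coding records rose and 12.7% fell. As deposited, where 10.6% rose and 28.2% fell, 3 rose and 1 fell. The ligand DLL3 had 3.28 FPKM on day 0, 29.8 on day 11 and 10.4 on day 18, and HES5, one of the targets, had 1.95, 29.5 and 20.0. The targets HES1 and HEY1 went from 15.4 and 2.54 FPKM on day 0 to 10.1 and 1.80 on day 18. Neither passed 2-fold over days 0 to 18 on either scale, and JAG1 and NOTCH1 did not do so either. Among 6 genes around REST, the repressor of neuronal genes outside neurons, SRRM4 alone rose, from 0.424 to 10.3 FPKM by day 18. Of these 6, 0 fell (2 as deposited), against the same shares of coding records as for the Notch genes. SRRM4 is a splicing factor that turns REST off. REST itself had 7.68 FPKM on day 0 and 3.11 on day 18, a relative log2 change of -0.72.

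Of the 14 newborn neuron genes, 12 rose and 0 fell from day 0 to day 18 (median 2.36), where 18.5% of coding records rose and 12.7% fell. Of the 14 neuronal maturation genes 11 rose and 0 fell (median 1.82). As deposited these were 10 and 0, and 8 and 1, against 10.6% and 28.2% of coding records. The medians of the 9 factors and of all coding records for the same days are 3.46 and 0.04. The maturation genes that did not rise were already high on day 0. GAP43, NEFM and NEFL had 193, 179 and 153 FPKM on day 0, and 173, 108 and 68.1 on day 18. GAP43 and NEFM were at 55.7 and 56.7 FPKM on day 1. The summed FPKM of the maturation list was 681 on day 0, 443 on day 1 and 802 on day 18. DCX, a microtubule protein of migrating neurons, had 5.46 FPKM on day 0, 90.0 on day 11 and 88.0 on day 18. CNTN2, an adhesion molecule of young axons, had 4.87, 75.7 and 28.0, a relative log2 change of -1.16 from day 11 to day 18. STMN2, which binds tubulin in growing axons, had 32.3, 517 and 727. The gene pairs CNTN2 with NHLH1, and STMN2 with MYT1, were thus highest on the same days.

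Markers of dividing cells moved the other way from day 0 to day 18, though not at every step. All 12 cell cycle genes fell between these days, against the same 12.7% of coding records. Their summed FPKM went from 1096 on day 0 to 641 on day 4, 475 on day 5, 514 on day 11 and 215 on day 18. From day 5 to day 11, where 7 of the 9 factors rose, 0 of these 12 genes rose or fell by 2-fold. Their median log2 change over that step was 0.23 relative and 0.07 as deposited. Of the 10 neural progenitor genes, 2 rose (SOX9, PAX6) and 2 fell (PROM1, HMGA2), against 18.5% and 12.7% of coding records. As deposited 2 rose and 3 fell, against 10.6% and 28.2% of coding records. At day 0, SOX2 had 126 FPKM and NES 513, and on day 18 they had 66.1 and 180, so both were present on the first and the last day. PAX6 and SOX9 had 4.31 and 7.25 FPKM on day 0, and 10.4 and 34.8 on day 18.

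Cell types outside the nervous system that also use these factors were examined by their markers. B cell markers summed to 3.62 FPKM on day 0 and 0.727 on day 18, of which PAX5 made up 3.48 and 0.523. Of the 2 above the minimum, PAX5 fell. CD79A was at 0.114 and 0.194 FPKM, a change of 1.02 relative to the median and 0.46 as deposited, with too few fragments at 3 of 6 steps. The 10 mesenchymal, mural and fat cell markers summed to 663 FPKM on day 0, 112 on day 11 and 58.2 on day 18 (0 rose, 5 of 7 above the minimum fell, or 6 as deposited), with PPARG at most 0.0106 FPKM. Over days 0 to 18, 18.5% of coding records rose and 12.7% fell, or 10.6% and 28.2% as deposited. On day 0 the sum was mostly TAGLN (367) and COL3A1 (238). COL1A1 was listed at 0 on all 7 days while COL1A2 had 33.6 FPKM on day 0, so this 0 is not read as its level. EBF1 had its starting level of 4.87 FPKM on the day of the highest sum, while RGS5 was highest on day 4 and ACTA2 on day 1, and the part of such cells in that level was not tested.

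The counts of the next lists are also for days 0 to 18. Over these days 18.5% of coding records rose and 12.7% fell, or 10.6% and 28.2% as deposited. Endocrine markers rose in 4 of 4 genes above the minimum (the same as deposited). These were CHGA, CHGB, SST and ISL1, all of which are also expressed by neurons, whereas PAX4, GCG, PYY and NKX2-2 stayed below 0.1 FPKM. The record of INS is merged with IGF2 and listed at 0 on all 7 days, which gives no level for INS. Oligodendrocyte lineage markers summed to between 31.1 and 38.2 FPKM over the 7 days, of which PDGFRA, in a record merged with FIP1L1, made up 27.3 on day 0 and 16.4 on day 18. OLIG1, OLIG2 and SOX10 stayed at or below 0.196 FPKM. Of the 5 oligodendrocyte lineage markers above the minimum, 2 rose and 0 fell (2 and 2 as deposited). Of 3 astrocyte markers above the minimum, 1 rose (SLC1A3) and 0 fell (1 and 1 as deposited). S100B had 8.68 FPKM on day 0, 0.593 on day 2 and 4.25 on day 18, and AQP4 stayed at or below 0.342. GFAP and ALDH1L1, below the minimum, stayed at or below 0.186 and 0.0364 FPKM. Among neural crest and sensory neuron markers, POU4F1, a homeodomain factor of sensory neurons, had 2.29 FPKM on day 0, 41.7 on day 11 and 24.4 on day 18. In that list 4 of 5 above the minimum rose and 1 fell (3 and 1 as deposited), with PHOX2A and FOXD3 below 0.1 FPKM on every day. In the list of Cajal-Retzius and related early neuron markers, 4 of 5 above the minimum rose and 0 fell (the same as deposited). CALB2 went from 0.526 FPKM on day 0 to 15.6 on day 18, but RELN only from 0.0328 to 0.978. TP73 did not rise, at 0.266 and 0.137 FPKM, and TBR1 was below the minimum. RELN and LHX1 had too few fragments at 3 of 6 steps and LHX5 at 2. The part of these cell types in the levels of the 10 factors was not tested.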

How the data were processed

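Polyadenylated RNA of 20 cultures was sequenced as paired-end reads. The authors used TopHat2 for alignment (build hg19) and Cufflinks for assembly, combined the assembly with catalogued lincRNAs and coding genes, and obtained FPKM values from Cuffdiff2, with default options for alignment and estimation. Program versions and counting by strand are not stated. The deposited FPKM values give 1 estimate per record and day, and 0 columns hold single samples, so depth per sample and its precision are unknown. A second table repeats these FPKM values (4 of 38369 records differed by over 0.1%, none among the 10 factors) and holds exon positions and the authors' own comparisons (fold changes, test statistics, p and q). Those comparisons were not used; only the flag for too few fragments was read.

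Groups came from sample titles. Changes in log2(FPKM + 0.1) were centred on the median of records with a mean of at least 1 FPKM, computed with Python 3.11.15, pandas 2.3.3 and numpy 2.4.6, and the centring was checked on simulated data. The design named limma only for values of single samples, so no test was run. The 10 factors, their gene lists (130 genes, all with a record) and the comparisons were chosen with earlier results of these data known. Named genes were the factors, genes of the lists and, for the factor with the highest level among the zinc finger, NHLH and EBF groups, the 5 coding records most like it in Pearson's r over the 7 days, among 1469 coding records with a mean of at least 1 FPKM and a range of at least 2 on the log2 scale. For each symbol of the lists, the record with the highest mean was used, primary chromosomes first. Promoter windows were taken from RefSeq (GRCh38.p14) by symbol, and no coordinates were converted. Protein sequences were not used here. Some genes of the lists entered the counts and sums but are not reported here by name. Alternatives varied the centring, the pseudocount, the minimum fold and level, the record and the days.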

Additional observations from a re-analysis of the deposited data

How the results depend on the processing

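No paired analysis was possible because the files give 1 pooled value per day, and for the same reason no replicate could be left out and no block fitted. The counts of factors at least 2-fold higher over days 0 to 11 and days 0 to 18 (9 each) stayed within 1.5 times under all alternatives run, and over days 0 to 4 (8) under all but a minimum fold of 4, which gave 5. The smaller counts of single steps were less stable. With a pseudocount of 1, the count was 1 in place of 4 over days 0 to 1, and 0 in place of 1 over each of the next 3 steps. With a minimum fold of 4 it was 0 at all 6 steps. A minimum fold of 1.5 gave 6 over days 1 to 2, 3 over days 2 to 4 and 3 over days 4 to 5, and over days 11 to 18 it gave 2 higher and 3 lower. As deposited, without centring, 2 were higher over days 1 to 2 and 3 lower over days 11 to 18, and a pseudocount of 0.01 gave 2 over days 1 to 2. The alternative over days 4 to 11, which gave 8 in place of 7 for days 5 to 11, was added after seeing the data.

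Of 30 log2 changes of single factors, 16 moved by over 1.5-fold with a pseudocount of 1 and 4 with 0.01, and as deposited 3 changed sign, all of them under 2-fold. Peak days moved to day 18 for EBF1 and EBF3 when FPKM was divided by the median change from day 0. With a pseudocount of 1, the median change from day 0 to day 18 was 2.03 for proneural factors, 1.90 for Cajal-Retzius and related markers, 2.52 for endocrine markers and 1.21 for neural crest and sensory neuron markers. With 0.01 it was 5.43 for the Cajal-Retzius list. How far depth limits these values is unknown.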

Other observations

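The records most like the leading factor of each class over the 7 days were listed as a description, without a test. The 7 points share libraries and scaling. INSM1 led the zinc finger class as deposited, at 13.6 FPKM on day 11 against 12.9 for SCRT1 on day 18. With FPKM divided by the median change from day 0, SCRT1 led, at 19.0 against 16.6. The values of INSM1 are also uncertain because of its antisense record. For INSM1, the highest Pearson's r were those of NPPC (0.993), KLHDC8A (0.991), ROBO3 (0.985), CDKN1C (0.977) and PRDM8 (0.975). ROBO3, an axon guidance receptor of commissural neurons, had 5.51 FPKM on day 0, 71.1 on day 11 and 35.3 on day 18. CDKN1C, an inhibitor of the cell cycle, had 8.22, 49.4 and 28.4. NPPC, which codes for a natriuretic peptide, had 0.277, 30.7 and 8.38.

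For NHLH1 the nearest were NGFR (0.976), CRYBG3 (0.969), FNDC5 (0.963), C1orf187 (0.963) and SLC43A2 (0.962). NGFR, the low-affinity neurotrophin receptor, had 0.709 FPKM on day 0, 15.2 on day 4, 16.0 on day 11 and 13.1 on day 18. For EBF1 they were NRG1 (0.996), SNCG (0.989), SAMD5 (0.989), KIRREL3 (0.988) and POU4F2 (0.985). POU4F2, a homeodomain factor of retinal ganglion and sensory neurons, had 0.457 FPKM on day 0, 0.347 on day 1, 4.71 on day 11 and 5.90 on day 18, so that it too was no higher on day 1 than on day 0.

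Of the paralogues outside the 10 factors, EBF4 had 0.991 FPKM on day 0, 3.28 on day 2, 1.79 on day 11 and 2.41 on day 18. INSM2 stayed at or below 0.0229 FPKM. SCRT2 lies in a record merged with SRXN1, with 14.7 FPKM on day 0 and 10.5 on day 18, which cannot be assigned to SCRT2 alone.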
